A study of Mus musculus with 6 samples.

Results

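The genes described here are the potassium channel genes of the deposited expression table that lie outside the Kv3 (Kcnc) and Kv9 (Kcns) subfamilies. They were chosen as the rows whose symbol starts with Kcn but not with Kcnc or Kcns, and whose mean over the 6 mice was 10 normalized counts or more. Of 93 rows with a Kcn symbol, 86 lay outside Kcnc and Kcns, 73 passed this level, and 13 lay below it. These 73 genes stand among 16127 genes that passed the same level, out of 37620 in the table, and they were sorted into 15 subfamilies. For 4 of the 73, the mean of 1 group was under 10 normalized counts, in 3 genes that of the saline mice and in 1 gene that of the ketamine mice.

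All mice were C57Bl/6 animals of 9 weeks. Ketamine, an antagonist of the NMDA receptor, was given by intraperitoneal injection at 30 mg/kg once daily for 5 days, and the control mice received saline vehicle on the same days. The prelimbic cortex (PLc), which belongs to the medial prefrontal cortex, was dissected 2 days after the last injection, and total RNA of each mouse gave a library of its own. Saline mice 1, 6 and 10 were compared with ketamine mice 3, 5 and 9, and values per mouse are given below in these orders.

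Potassium channels let potassium leave the cell, and so set the resting potential, shape the action potential and limit repetitive firing. The voltage-gated (Kv) channels are built of 4 alpha subunits, often with auxiliary subunits that alter gating or surface delivery. Inward rectifiers and two-pore-domain channels carry resting currents, and BK and SK channels open with calcium. In cortex, most of these genes are known for expression in neurons, while a few are known from glia, vessels or the choroid plexus.

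Several libraries stood apart in markers of other tissues. A list score is the mean log2 value of the markers in a mouse, relative to the saline mean. The score of 31 striatal markers reached 2.70 and 1.85 in ketamine mice 3 and 5, while the other mice had -0.06 to 0.09, with summed levels of 36670 to 51100 normalized counts in saline and 47490 to 150700 in ketamine mice. For 18 olfactory bulb markers it was 1.88, 1.19 and 3.20 in the ketamine mice and between -0.36 and 0.43 in the saline mice, with summed levels of 21160 to 24960 and 24390 to 44960 normalized counts. Saline mouse 10 had the highest oligodendrocyte score (1.85) and the highest choroid plexus and ependyma score (2.08). Cortical excitatory markers were present in every mouse. Slc17a7 encodes the vesicular glutamate transporter of cortical neurons. It had 49417, 48207 and 32973 normalized counts in the saline mice and 22152, 40369 and 32985 in the ketamine mice. Of 18 such markers, 14 were lower in ketamine mice and 4 higher. All ketamine mice lay below all saline mice for 4 (4.66% of all genes) and above for 1 (5.69%). The score of this list lay between -0.30 and 0.21 in saline and between -0.48 and -0.09 in ketamine mice. Whether these differences have a part in the results below was not tested. Results are also given without saline mouse 10 and ketamine mouse 9, and without ketamine mice 3 and 5. The first choice leaves saline mice 1 and 6 against ketamine mice 3 and 5, those with the high striatal scores. Treatment and that score cannot be told apart there. The second choice leaves ketamine mouse 9 alone, the mouse with the highest olfactory bulb score, and so describes that mouse only. In bulk tissue, fewer cells of a type and less RNA per cell cannot be told apart.

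The values are normalized counts, that is, reads per gene divided by a size factor of the library, and between 26273436 and 32643726 reads per library were recovered from them. Groups were compared with limma on log2(normalized count + 1) over all 16127 genes, two-sided, with Benjamini-Hochberg adjustment and a threshold of 0.05. Fold changes on this scale understate the change of genes with few counts. At that threshold limma called 0 of the 73 genes, as it called 0 of all genes tested (0% called), and edgeR also called 0. The smallest adjusted p among the potassium channel genes was 0.173. Before adjustment, 8 of the 73 genes had a p under 0.05, or 11%, against 5.81% of all genes. Of these, 6 were higher in ketamine mice (3.44% of all genes) and 2 were lower (2.37% of all genes). The 6 include Kcnk15 and Kcnn4, which passed the level only through the ketamine mice, where they are high, so nothing is read from this share. DESeq2 on the recovered reads called 1 of the 73, Kcna5, which was higher, and 1.13% of all genes, with 0.899% higher.

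By sign alone, 25 of the genes were higher and 48 lower in ketamine mice. The median log2 fold change was -0.19 over the 73 genes and -0.01 over all genes tested, of which 53% lay below 0. That lean was not seen without ketamine mouse 9, where the median over the 73 was 0.08. There 42 genes were higher and 31 lower, beside 51.1% of all genes lower. The median was -0.06 over the 73 and -0.02 over all genes without saline mouse 10 and ketamine mouse 9. Without ketamine mice 3 and 5, which leaves ketamine mouse 9 alone, the median was -0.31, and 51 of the 73 were lower, against 49.9% of all genes. All 3 ketamine mice stood above all 3 saline mice for 5 of the genes, namely Kcna4, Kcna5, Kcnh2, Kcnip1 and Kcnk15 (5.69% of all genes), and Kcnk15 is again one that passed the level through the ketamine mice. All 3 stood below for 2, namely Kcnk4 and Kcnj11 (4.66% of all genes). Both shares, 6.85% and 2.74% of the 73, were near or under those of all genes, and with 3 mice against 3 the smallest exact permutation p is 0.1.

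**Figure D1:**
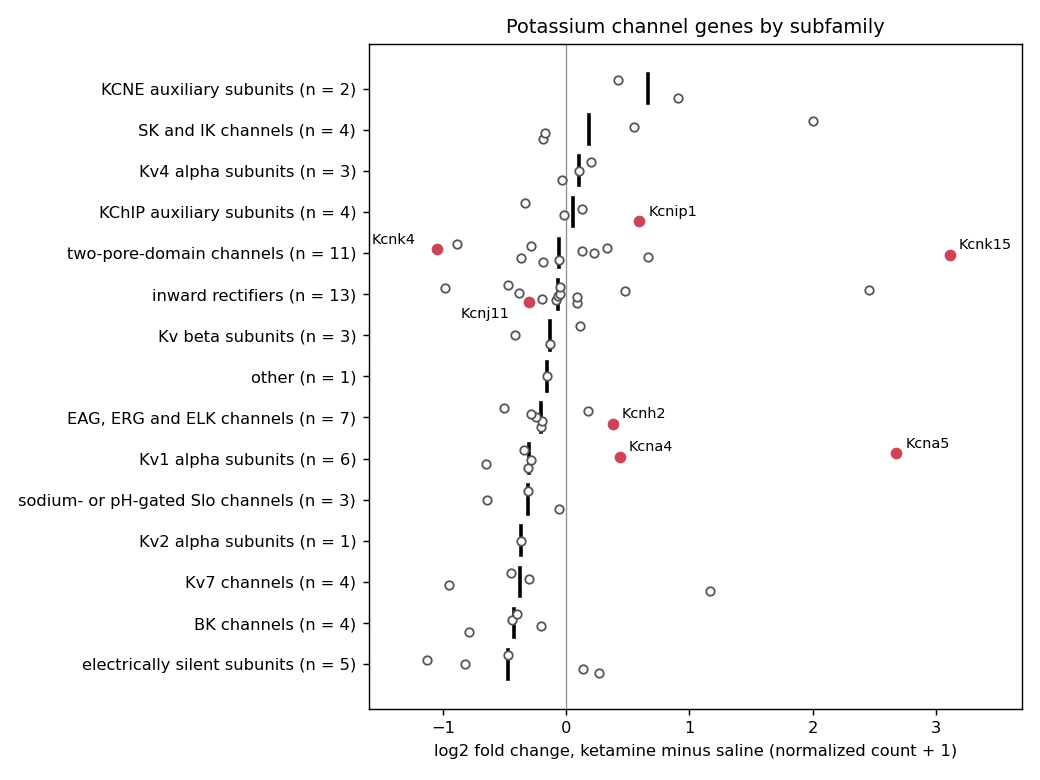
Each of 71 points is a potassium channel gene of the 73, placed by its log2 fold change, ketamine minus saline, on the scale of log2(normalized count + 1), within its subfamily, and each bar is the median of the points drawn. Filled points are the 7 genes whose groups did not overlap. These medians ran from -0.47 for electrically silent subunits to 0.66 for KCNE auxiliary subunits. The first was 0.16 without ketamine mouse 9 and -0.31 without mice 10 and 9. With no filter on low levels the second was -0.42. Kcna5 and Kcnk15 lay farthest to the right.

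Levels between genes were compared per kilobase of exon in the saline mice, over the union of exons in GENCODE M1. Kcnab2, which encodes a Kv beta subunit, stood highest at 2578 normalized counts per kilobase, with 2192 to 3136 over the 3 mice. Next were Kcnj4 at 1778 (1124 to 2218), Kcnh3 at 1395 (916 to 1658) and Kcnj9 at 1361 (925 to 1716), the first and last of them inward rectifiers and Kcnh3 a channel of the ELK type. The ranges of these neighbours overlapped. Within each saline mouse, Kcnab2 stood above Kcnj4 and Kcnj4 above Kcnh3, while Kcnh3 and Kcnj9 changed places between mice. Kcnk1 at 1071 (966 to 1176) followed. The lowest levels were those of Kcnk15 (0.802), Kcnj5 (1.53) and Kcnn4 (1.66). Kcnj4, Kcnj9 and Kcnj5 were picked for these sentences after their values were seen.

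The plot of 71 of the 73 genes by mouse shows the levels that the following paragraphs take up by subfamily.

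**Figure D2:**
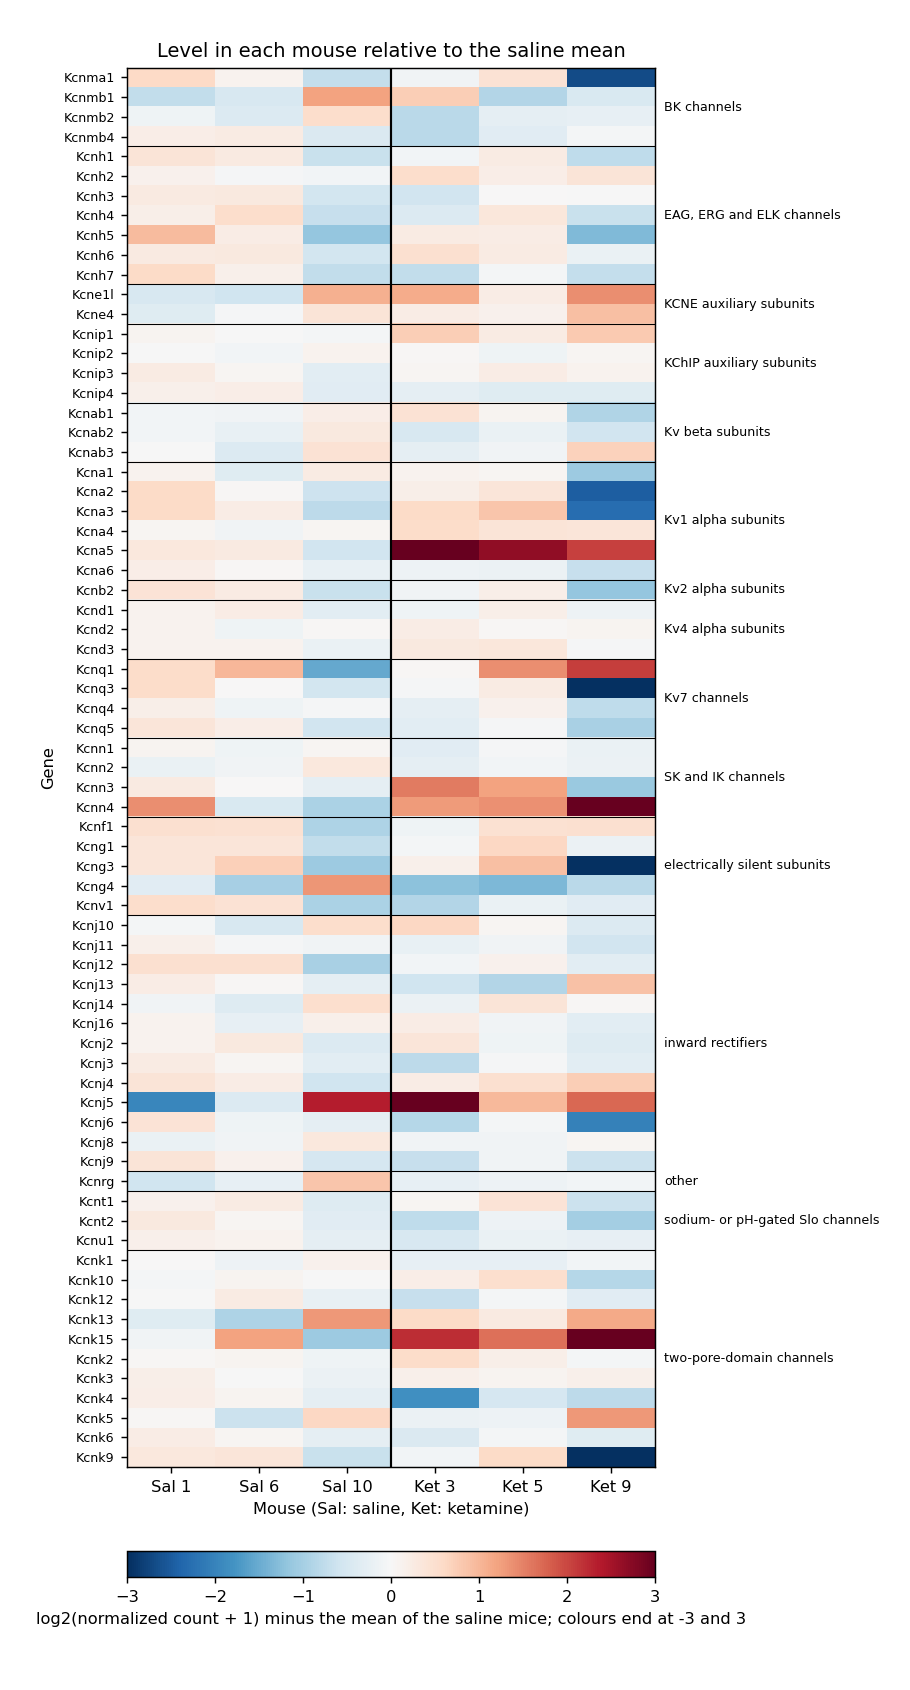
Colour gives log2(normalized count + 1) of each gene in each mouse minus the mean of the saline mice, and it ends at -3 and 3. Columns are mice, with saline (Sal) left and ketamine (Ket) right of the vertical line, and horizontal lines part the subfamilies. The darkest blue cells lie in the column of ketamine mouse 9, at -3.51 for Kcng3, -3.17 for Kcnk9 and -3.07 for Kcnq3, while Kcna5 is red in all ketamine mice.

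The Kv1 alpha subunits form low-threshold channels of axons and terminals. Of 6 Kv1 genes, 2 were higher and 4 lower, with a median log2 fold change of -0.30, and without ketamine mouse 9 the median was 0.37, with 5 higher. Kcna5 (ENSMUSG00000045534) encodes Kv1.5, a delayed rectifier best known from heart and vascular muscle. It lies on the minus strand of mm9 at chr6:126482571-126485573, with no overlapping exon of another gene. Its level was 76.6, 74.3 and 40.6 normalized counts in the saline mice and 616, 396 and 259 in the ketamine mice. The lowest ketamine mouse thus stood above the highest saline mouse. The means were 63.9 ± 20.2 and 424 ± 180 (SD, n = 3 each), and the log2 fold change was 2.68 (SE 0.377, limma adjusted p = 0.173). On the recovered reads DESeq2 gave 2.74 (SE 0.397, adjusted p = 9.23e-09), while the adjusted p of edgeR was 0.192. Leaving out single mice moved the log2 fold change between 2.36 and 2.99. Without mice 10 and 9 it was 2.69 (limma adjusted p = 0.00955), and against ketamine mouse 9 alone it was 2.06. Among the ketamine mice, Kcna5 and the striatal score were both highest in mouse 3 and lowest in mouse 9, where that score was 0.09. The olfactory bulb score had 1.88, 1.19 and 3.20 in the ketamine mice and -0.36 to 0.43 in the saline mice. Like Kcna5, it did not overlap between the groups, but its highest value lay in mouse 9. The part of either score in the Kcna5 values was not tested.

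Kcna4 encodes Kv1.4, an inactivating A-type subunit, and sits at chr2:107130796-107138659 of mm9, plus strand. It had 648, 574 and 647 normalized counts in the saline mice and 906, 818 and 803 in the ketamine mice. The groups did not overlap (exact permutation p = 0.1), and the difference was small beside that of Kcna5, with a log2 fold change of 0.44 (SE 0.129, limma adjusted p = 0.628). Leaving out single mice gave 0.38 to 0.47. Kcna1 encodes Kv1.1, a subunit of axonal channels, and had the most counts of the Kv1 genes. Its level was 6365, 4625 and 7078 normalized counts in the saline mice and 6352, 6206 and 2791 in the ketamine mice, so that 2 ketamine mice lay within the saline range and mouse 9 below it. Its log2 fold change of -0.31 (limma adjusted p = 0.999) turned to 0.08 without mouse 9.

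Kcna5, Kcna1 and Kcna6 are neighbours on the minus strand of chromosome 6, with Kcna1 from 126586481 to 126595819 and Kcna6 from 126658347 to 126690680 on mm9. Kcna6, which encodes Kv1.6 and was taken up for its position after its values were seen, had 4374, 3889 and 3271 normalized counts in the saline mice and 3432, 3360 and 2361 in the ketamine mice. Its groups overlapped, its sign was the opposite of that of Kcna5, and its log2 fold change was -0.34 (limma adjusted p = 0.999). Kcna6 shares 2343 exon bases with Gm17456 on the other strand, which averaged 66.0 normalized counts. The 250 bases before the RefSeq start (GRCm38.p6) are printed for both genes beside those of Kcna4, to set the Kv1 genes that stood above saline in every ketamine mouse beside a neighbour that did not. Capitals mark CpG, and each run reads 5′ to 3′ on the gene's own strand. The positions are chr2:107290339-107290588 on the plus strand for Kcna4, chr6:126535556-126535805 on the minus strand for Kcna5 and chr6:126740675-126740924 on the minus strand for Kcna6.
Kcna4: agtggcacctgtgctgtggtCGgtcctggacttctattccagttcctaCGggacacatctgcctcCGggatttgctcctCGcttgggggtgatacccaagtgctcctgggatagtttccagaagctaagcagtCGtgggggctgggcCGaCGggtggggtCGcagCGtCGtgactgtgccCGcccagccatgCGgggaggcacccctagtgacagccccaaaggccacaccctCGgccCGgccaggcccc
Kcna5: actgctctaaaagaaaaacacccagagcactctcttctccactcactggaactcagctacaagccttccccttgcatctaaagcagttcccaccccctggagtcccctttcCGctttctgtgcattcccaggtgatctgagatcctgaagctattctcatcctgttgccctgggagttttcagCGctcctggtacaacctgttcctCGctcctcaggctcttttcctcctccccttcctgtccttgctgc
Kcna6: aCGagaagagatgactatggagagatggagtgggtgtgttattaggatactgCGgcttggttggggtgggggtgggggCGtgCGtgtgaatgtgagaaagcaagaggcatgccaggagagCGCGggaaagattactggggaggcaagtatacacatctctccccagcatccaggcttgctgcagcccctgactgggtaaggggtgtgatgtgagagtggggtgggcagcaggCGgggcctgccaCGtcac
The table of promoters held 53 of the 73 genes. The Kcna5 stretch held 3 CpG with 53.2% G or C, the Kcna6 stretch 8 CpG with 58.8%, and the Kcna4 stretch 14 CpG with 65.2%. The median over 32851 RefSeq promoters of the same length was 6 CpG, and 37.8% of them had 3 or fewer. On either strand, 4 motifs were looked for, the cAMP response element TGACGTCA (in 1.55% of all promoters), the TATA motif TATAAA (12.4%), the GC box GGGCGG (32.7%) and the E box CACGTG (6.02%). The GC box was found in Kcna4, and no other match was found in these windows.

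**Figure D3:**
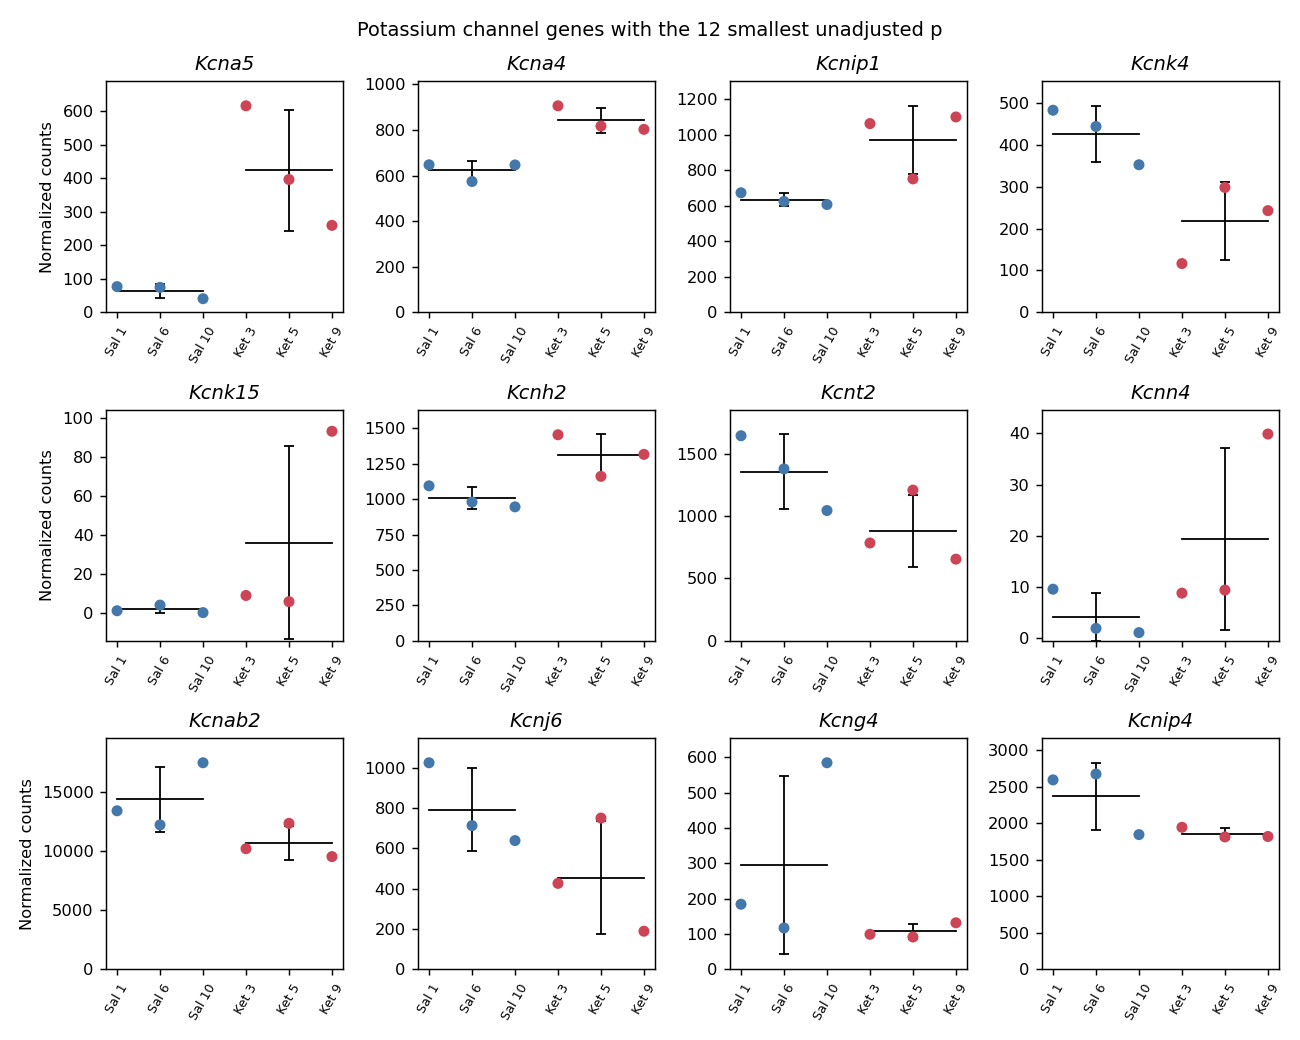
The 12 potassium channel genes with the smallest unadjusted p by limma, with normalized counts on the y axis and the mouse on the x axis. Points are mice, horizontal lines the group means and error bars the SD (n = 3 each). For Kcna5, Kcna4, Kcnip1, Kcnk15 and Kcnh2 all ketamine mice lie above all saline mice, and for Kcnk4 they all lie below.

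The Kv beta subunits are cytoplasmic partners of Kv1 channels, and 1 of 3 was higher and 2 lower. Kcnab2, the most abundant of the 73 genes per length, had 13422, 12225 and 17491 normalized counts in the saline mice and 10211, 12359 and 9543 in the ketamine mice. Ketamine mouse 5 lay just above saline mouse 6, and the other ketamine mice lay below all saline mice. Its log2 fold change of -0.42 (SE 0.186, limma adjusted p = 0.879) was -0.19 without mice 10 and 9. A same-strand gene model, Gm16334, shares 125 exon bases with Kcnab2 and averaged 6.13 normalized counts.

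The Kv2 alpha subunits carry much of the delayed rectifier current of pyramidal cell bodies, and the electrically silent subunits (Kcnf, Kcng and Kcnv) form channels only together with them. Of the 5 silent subunit genes, 2 were higher and 3 lower, against 3 and 2 without ketamine mouse 9. Kcnf1, which encodes Kv5.1, had 5480, 5430 and 2061 normalized counts in the saline mice, with mouse 10 at well under the level of the others, and 3601, 5383 and 5495 in the ketamine mice. Its log2 fold change was 0.27 (limma adjusted p = 0.999), and -0.31 without mice 10 and 9. Kcng4, which encodes Kv6.4, had 184, 117 and 584 normalized counts in the saline mice and 98.9, 91.3 and 131 in the ketamine mice. The high value of saline mouse 10 set most of the difference. This gave a log2 fold change of -1.13 (SE 0.548, limma adjusted p = 0.929), which shrank to -0.47 without that mouse.

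The Kv4 alpha subunits carry the A-type current of dendrites, and the KChIP proteins, calcium sensors encoded by Kcnip1 to Kcnip4, are their auxiliary subunits. The 3 Kv4 genes had log2 fold changes between -0.04 and 0.20. Kcnd2, which encodes Kv4.2, had 3561, 3034 and 3434 normalized counts in the saline mice and 3869, 3406 and 3514 in the ketamine mice. Saline mouse 6 lay below all ketamine mice and ketamine mouse 3 above all saline mice, and the other mice overlapped. The log2 fold change was 0.11 (SE 0.127, limma adjusted p = 0.999). Among the 4 KChIP genes, 2 were higher and 2 lower, and they differed in pattern. Kcnip1, which encodes KChIP1 and is known from GABAergic interneurons, had 673, 624 and 607 normalized counts in the saline mice and 1063, 752 and 1100.4 in the ketamine mice. All ketamine mice stood above all saline mice (exact permutation p = 0.1), with a log2 fold change of 0.59 (SE 0.176, limma adjusted p = 0.628) and a range of 0.49 to 0.77 when single mice were left out. The score of 15 GABAergic interneuron markers was 0.43, 0.24 and 0.55 in the ketamine mice and between -0.06 and 0.03 in the saline mice, and its part in the Kcnip1 values was not tested. The summed level of these markers was 47990 to 49140 normalized counts in saline and 51560 to 67060 in ketamine mice. Of the 15, 9 were higher and 6 lower, so they did not move together. For 7, all ketamine mice stood above all saline mice (5.69% of all genes). For 2, Pvalb and Sst, they stood below (4.66% of all genes). Pvalb had 1105, 893 and 2261 normalized counts in the saline mice and 535, 516 and 670 in the ketamine mice.

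Kcnip4, which encodes KChIP4, had 2596, 2676 and 1846 normalized counts in the saline mice and 1946, 1814 and 1820.1 in the ketamine mice. The ketamine mice lay close together, near saline mouse 10 and below the other saline mice. A log2 fold change of -0.33 (SE 0.169, limma adjusted p = 0.951) was found, and without mice 10 and 9 it was -0.49 (limma adjusted p = 0.0468). Mouse 10 was the only saline mouse within the range of the ketamine mice, and that pair was left out after the data were seen. Nothing is therefore read from the second p. Kcnip2, which encodes KChIP2, varied little between mice, with 3252, 3126 and 3525 normalized counts in the saline mice and 3367, 3016 and 3412 in the ketamine mice. Its log2 fold change was -0.02 (SE 0.122, limma adjusted p = 0.999), and its sign turned with TMM or upper-quartile scaling.

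The Kv7 channels carry the M-current, a slow brake on firing that muscarinic receptors close. Kcnq3, which encodes a subunit of the M-channel and was taken up after its values were seen, had 1600, 1096 and 740.2 normalized counts in the saline mice and 1073, 1287 and 129 in the ketamine mice. The KCNE auxiliary subunits are small membrane proteins that modulate Kv7 and other channels. Both were higher, with Kcne1l at 54.6, 50.2 and 160 normalized counts in the saline mice and 166, 88.4 and 201 in the ketamine mice. Saline mouse 10 overlapped with the ketamine mice, and the log2 fold change was 0.91 (SE 0.506, limma adjusted p = 0.999).

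The EAG, ERG and ELK channels, encoded by the Kcnh genes, govern excitability near threshold. Of 7 genes, 2 were higher and 5 lower, with a median of -0.20. Without ketamine mouse 9 there were 4 higher and 3 lower, with a median of 0.08. The median was -0.54 without saline mouse 10 and -0.35 without mice 10 and 9. Kcnh2, which encodes ERG1, a channel best known for cardiac repolarization, had 1094, 980 and 945.5 normalized counts in the saline mice and 1455, 1161 and 1316 in the ketamine mice. All ketamine mice stood above all saline mice (exact permutation p = 0.1), with a log2 fold change of 0.38 (SE 0.139, limma adjusted p = 0.776) that ran from 0.30 to 0.46 when single mice were left out. Kcnh3, which encodes an ELK channel of forebrain neurons, had 5957, 6131 and 3386 normalized counts in the saline mice and 3343, 5011 and 4927 in the ketamine mice. These overlapped, with saline mouse 10 and ketamine mouse 3 at about the same low level, and the log2 fold change was -0.19 (limma adjusted p = 0.999).

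The BK channel opens with voltage and calcium together, and its pore is encoded by Kcnma1. All 4 BK genes were lower by sign, with a median of -0.42, which was -0.24 without mice 10 and 9. Kcnma1 had 3722, 2650.2 and 1493 normalized counts in the saline mice and 2278, 3295 and 383 in the ketamine mice. Ketamine mice 3 and 5 lay within the saline range and mouse 9 was far below, and the log2 fold change of -0.79 (limma adjusted p = 0.999) turned to 0.16 without mouse 9. Kcnt1 and Kcnt2 encode the related channels that open with sodium. Kcnt1 had 3275, 3544 and 2269 normalized counts in the saline mice and 3118, 3956 and 1901 in the ketamine mice, with a log2 fold change of -0.06 (limma adjusted p = 0.999). Kcnt2 had 1644, 1378 and 1044 normalized counts in the saline mice and 784, 1208 and 654 in the ketamine mice. Ketamine mouse 5 lay inside the saline range and the other ketamine mice below it, and the log2 fold change was -0.64 (SE 0.265, limma adjusted p = 0.851).

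The SK channels open with calcium alone and underlie the afterhyperpolarization, and the related IK channel is encoded by Kcnn4. Kcnn2, which encodes SK2, had 909, 977 and 1302 normalized counts in the saline mice and 868, 999 and 927 in the ketamine mice, a log2 fold change of -0.17 (limma adjusted p = 0.999). Kcnn3, which encodes SK3, had 135, 111 and 91.2 normalized counts in the saline mice and 329, 258 and 50.8 in the ketamine mice, and it was taken up after its values were seen. Ketamine mice 3 and 5 stood above all saline mice, and mouse 9 below them all. Its log2 fold change was 0.55 (limma adjusted p = 0.999), 1.38 without mouse 9 (limma adjusted p = 0.158) and 1.24 without mice 10 and 9 (limma adjusted p = 0.0277). Without mice 3 and 5, against ketamine mouse 9 alone, it had the opposite sign, at -1.11. Mice 3 and 5 were also those with the high striatal scores, and that score's part in the Kcnn3 values was not tested. Without mice 10 and 9, limma called 3 of the 73 genes, Kcna5, Kcnip4 and Kcnn3, and 3.64% of all genes. Both ketamine mice left in that fit had high striatal scores, and the pair to leave out was chosen after the data were seen.

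The inward rectifiers pass potassium best near the resting potential, and include channels gated by G proteins (Kcnj3, Kcnj5, Kcnj6 and Kcnj9) and by ATP (Kcnj8 and Kcnj11). Of 13 genes, 4 were higher and 9 lower, with a median of -0.07. Without ketamine mouse 9 there were 7 higher and 6 lower, with a median of 0.03, and without saline mouse 10 the median was -0.26. Kcnj6, which encodes GIRK2, had 1024, 712 and 638 normalized counts in the saline mice and 426, 749.8 and 189 in the ketamine mice. Ketamine mouse 5 overlapped with the saline mice, and the others lay below them. Its fitted log2 fold change was -0.98 (SE 0.471, limma adjusted p = 0.922), and -0.45 without mouse 9. Kcnj11, which encodes the pore Kir6.2 of neuronal ATP-gated channels, was taken up because its groups did not overlap. It had 1445, 1263 and 1215 normalized counts in the saline mice and 1124, 1204 and 880.2 in the ketamine mice. The gap between the highest ketamine and the lowest saline mouse was narrow (exact permutation p = 0.1), and the log2 fold change was -0.30 (SE 0.160, limma adjusted p = 0.971).

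The two-pore-domain channels carry background current, and of 11 genes 5 were higher and 6 lower, with a median of -0.06, which was 0.12 without ketamine mouse 9 and -0.17 without ketamine mouse 3. Kcnk1, which encodes TWIK1, was even across mice, at 2467, 2224 and 2706 normalized counts in the saline mice and 2083, 2069.7 and 2313 in the ketamine mice, a log2 fold change of -0.19 (SE 0.129, limma adjusted p = 0.999). Kcnk4, which encodes TRAAK, a channel opened by stretch and fatty acids, had 483, 444 and 353 normalized counts in the saline mice and 116, 298 and 243 in the ketamine mice. All ketamine mice lay below all saline mice (exact permutation p = 0.1), with ketamine mouse 3, which had the highest striatal score, the lowest. The log2 fold change was -1.05 (SE 0.347, limma adjusted p = 0.694), and -1.32 to -0.65 when single mice were left out. Kcnk15, which encodes TASK5, a subunit not known to form a working channel alone, was close to the detection limit in the saline mice, at 0.96, 3.86 and 0 normalized counts. It had 8.81, 5.64 and 93.4 in the ketamine mice. Most of the group mean thus came from mouse 9, the mouse with the highest olfactory bulb score. The log2 fold change of 3.11 (SE 1.11, limma adjusted p = 0.764) was 1.93 without it. DESeq2 gave adjusted p-values of 0.0613 over the filtered genes and 0.0467 over all genes with a read.

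Kcnrg, which encodes a protein that regulates assembly of Kv1 channels rather than a channel, had 6.71, 8.69 and 19.8 normalized counts in the saline mice and 8.81, 9.41 and 9.97 in the ketamine mice, a log2 fold change of -0.16 (limma adjusted p = 0.999).

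A few members are known from cells other than neurons. The plots of these genes and of the marker scores show which mice were high in both.

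**Figure D4:**
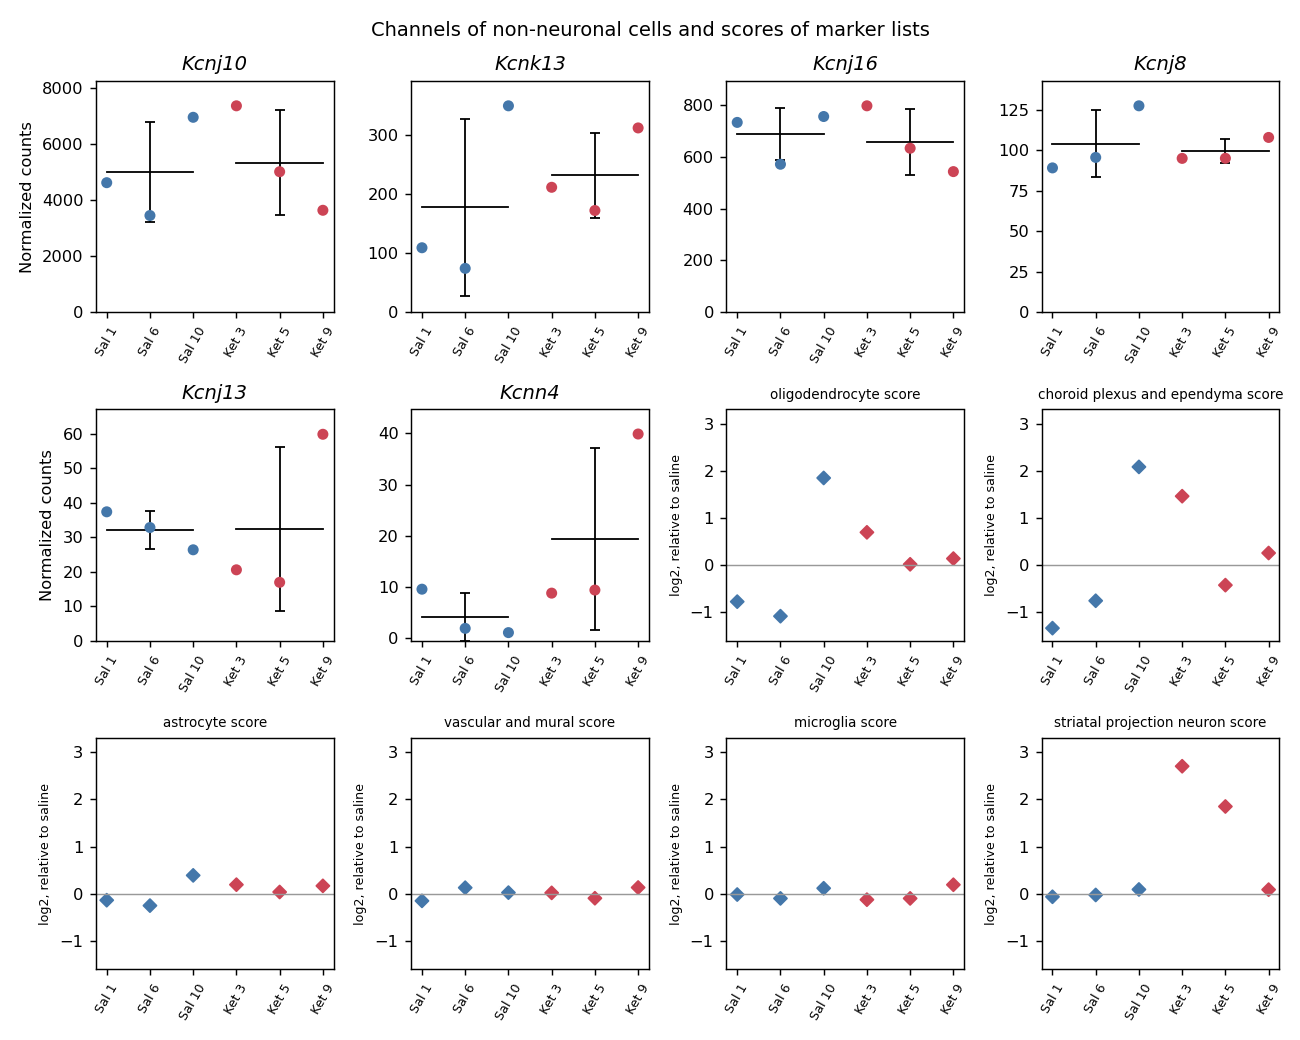
The first 6 panels give normalized counts (y axis) of channel genes known from non-neuronal cells by mouse (x axis), with lines for group means and error bars for the SD (n = 3 each). The other panels give marker list scores, as the mean log2 value relative to the saline mice. Kcnk13 and the oligodendrocyte, astrocyte, and choroid plexus and ependyma scores were all highest in saline mouse 10. Kcnn4 and Kcnj13 were highest in ketamine mouse 9.

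Kcnj10, which encodes Kir4.1 of astrocytes and oligodendrocytes, had 4618, 3448 and 6947 normalized counts in the saline mice and 7356, 5009 and 3635 in the ketamine mice. Both groups ran over nearly the same range, and the log2 fold change was 0.09 (SE 0.328, limma adjusted p = 0.999). Kcnj16, which encodes its partner Kir5.1, had 733, 571 and 755.5 normalized counts in the saline mice and 797, 633 and 543 in the ketamine mice. The score of 14 astrocyte markers lay between -0.25 and 0.39 in saline and between 0.04 and 0.19 in ketamine mice. Kcnk13, which encodes THIK1, a channel of microglia, had 109, 74.3 and 349 normalized counts in the saline mice and 211, 172 and 312 in the ketamine mice. It was highest in saline mouse 10 and lowest in saline mouse 6, as was the oligodendrocyte score (1.85 and -1.08). The same held for the oligodendrocyte precursor score (0.54 and -0.32) and the astrocyte score (0.39 and -0.25). Among the ketamine mice, Kcnk13 was highest in mouse 9, where the oligodendrocyte score was 0.14, against 0.70 in mouse 3. The score of 13 microglia markers lay between -0.13 and 0.19 in all mice. The log2 fold change of Kcnk13 was 0.66 (SE 0.550, limma adjusted p = 0.999).

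Kcnj8, which encodes Kir6.1 of pericytes, had 89.1, 95.6 and 127 normalized counts in the saline mice and 95.0, 95.0 and 108 in the ketamine mice, and the score of 16 vascular markers lay between -0.15 and 0.13. Kcnj13, which encodes Kir7.1 of the choroid plexus, had 37.4, 32.8 and 26.4 normalized counts in the saline mice and 20.6, 16.9 and 59.8 in the ketamine mice. Saline mouse 10, with the highest choroid plexus score, had the lowest Kcnj13 of the saline mice. Kcnj13 shares 623 of its 1270 exon bases with Gigyf2 on the other strand, which averaged 2054 normalized counts. The strand setting of the counting is not given in the sources used here. Over the shared bases, reads of Kcnj13 and Gigyf2 therefore cannot be told apart. Besides Kcna6 and Kcnj13, the genes Kcnab3, Kcnd3, Kcnh7, Kcnj3, Kcnmb4 and Kcnq5, listed for their position alone, share exon bases with genes on the other strand, up to 1621 in Kcnj3. Kcnn4, known from microglia and blood cells, had 9.58, 1.93 and 1.10 normalized counts in the saline mice and 8.81, 9.41 and 39.9 in the ketamine mice. Its groups overlapped, and its log2 fold change was 2.0 (SE 0.832, limma adjusted p = 0.851).

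Ketamine mouse 9 held the most extreme values of the set. For 9 of the 73 genes, or 12.3%, its level was at least 2-fold below that of every other mouse, against 2.8% of all genes tested. Among them were Kcna2, Kcna3, Kcng3, Kcnj6, Kcnk9, Kcnma1 and Kcnq3, which encode pore-forming or silent subunits and were singled out by these values. For Kcnk15 and Kcnn4 it was at least 2-fold above every other mouse (2.74% of the 73, against 1.02% of all genes). Both passed the level of 10 normalized counts only through the ketamine mice, chiefly mouse 9. Kcna2, which encodes Kv1.2, had 2550.9, 1752 and 1107 normalized counts in the saline mice and 1928, 2184 and 305 in the ketamine mice. Kcnk9, which encodes TASK3, had 564, 587 and 286 normalized counts in the saline mice and 434, 684 and 49.9 in the ketamine mice. Kcng3, a silent subunit, had 80.5, 103 and 28.6 normalized counts in the saline mice and 69.5, 117 and 4.53 in the ketamine mice. In each of these, saline mouse 10 was the lowest of its group, and ketamine mice 3 and 5 stayed within or near the saline range.

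**Figure D5:**
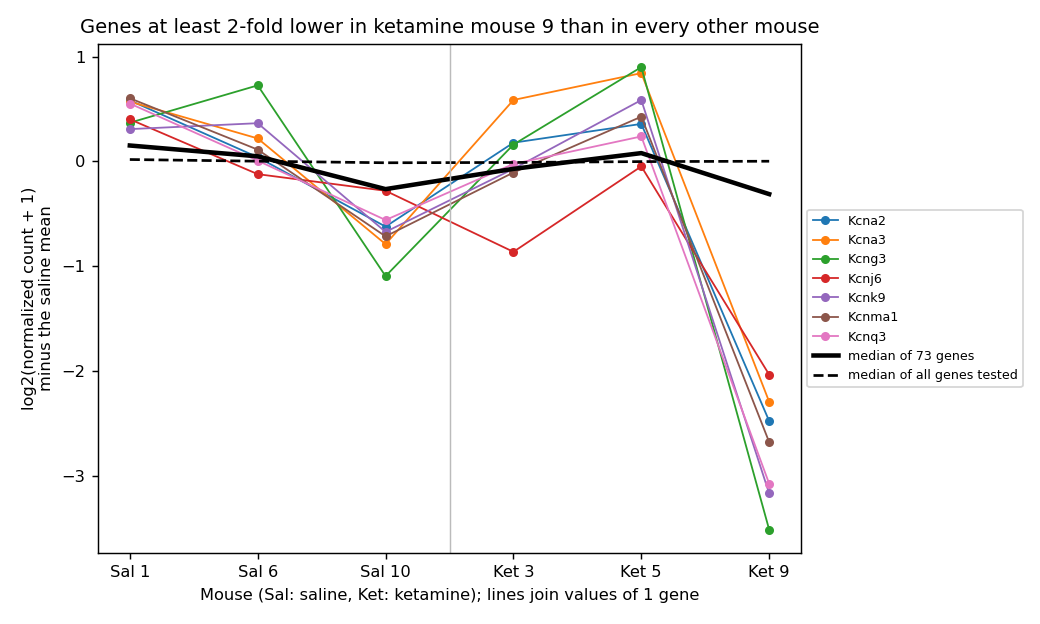
Thin lines give 7 of the 9 genes that were at least 2-fold lower in ketamine mouse 9 than in every other mouse, as log2(normalized count + 1) minus the saline mean (y axis) in each mouse (x axis). The thick line is the median of the 73 genes and the dashed line that of all genes tested. The 7 genes dip in saline mouse 10 and drop to between -3.51 and -2.03 in ketamine mouse 9, while the median of all genes stays near 0.

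Mouse 9 was the lowest of the 6 mice for 24 of the 73 genes (32.9%), against 29.1% of all genes, and saline mouse 10 for 20 (27.4%), against 14.3%. Saline mouse 1 was the highest for 24 (32.9%), against 19.5%, and ketamine mouse 9 for 11 (15.1%), against 29.4%. Exon length moved with the values of mouse 9. For all genes, 3 equal bins of exon length were formed (limits 2601 and 4664 bases). From shortest to longest, the median log2 deviation of mouse 9 from the mean of the 6 mice was 0.23, 0.03 and -0.26. Over the potassium channel genes in these bins it was 0.10 (13 genes), -0.21 (38 genes) and -0.46 (22 genes). The part of exon length in the low values was not tested. Of the genes named above as low in mouse 9, Kcnk9 and Kcna3 lie in the shortest bin, Kcnq3, Kcng3 and Kcna2 in the middle one and Kcnma1 and Kcnj6 in the longest. The summed level of the 73 genes was 151100, 134300 and 116700 normalized counts in the saline mice and 120400, 136200 and 97700 in the ketamine mice, overlapping between the groups.

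The genes of known partner proteins were described from a list grouped by complex. Of 36 partner genes tested, 7 were higher and 29 lower, beside 53% of all genes lower, with a median of -0.14, and limma called 0. Without ketamine mouse 9 there were 14 higher and 22 lower, with a median of -0.07. An unadjusted p under 0.05 was found for 3, all lower (2.37% of all genes). In 4 all ketamine mice lay below all saline mice (4.66% of all genes), and in 0 above. Adam11, a protein of the Kv1 complex at synapses, had 4370, 4232 and 4917 normalized counts in the saline mice and 2832, 3709 and 2498 in the ketamine mice, a log2 fold change of -0.60 (SE 0.173, limma adjusted p = 0.598). Abcc8, which encodes SUR1, the sulfonylurea receptor that joins Kcnj11 in ATP-gated channels, had 982, 1125 and 1047 normalized counts in the saline mice and 511, 932 and 431 in the ketamine mice. Its groups did not overlap, and the log2 fold change was -0.83 (SE 0.279, limma adjusted p = 0.710). Abcc8 was named for the smallest p of its complex and Kcnj11 for its separate groups. Both were thus picked for their differences, and nothing is read from their shared sign. The groups overlapped for Abcc9, which encodes the receptor SUR2 and was taken up after its values were seen, with a log2 fold change of -0.40 (limma adjusted p = 0.999).

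Snap25, a release protein that also binds Kv1 channels, had 88861, 76780 and 62728 normalized counts in the saline mice and 45831, 57308 and 61183 in the ketamine mice. The groups did not overlap, and the log2 fold change was -0.47 (SE 0.216, limma adjusted p = 0.896). Lrrc55, an auxiliary gamma subunit of BK channels and one of the 7 partners that were higher by sign, had 509, 337 and 522 normalized counts in the saline mice and 722, 469 and 1133 in the ketamine mice. Its groups overlapped, with a log2 fold change of 0.70 (SE 0.334, limma adjusted p = 0.919). Dpp6, the transmembrane partner of Kv4 channels, Vapa, a membrane contact protein that binds Kv2 channels, and Calm3, a calmodulin gene, had log2 fold changes of -0.12, -0.06 and -0.21 (limma adjusted p = 0.999 for each).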

How the data were processed

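Total RNA of the PLc of 6 mice was sequenced as 100 base pair paired-end reads. Per the labels and the study's methods, the authors aligned reads to mm9 with TopHat 2.0.11, counted them per gene with HTSeq and used DESeq2. What they deposited is a normalized signal: the count of a gene over the size factor of its library. Each library's values were whole multiples of a step (100.0%, within 0.01 reads), which gave back reads at 0.906 to 1.10 normalized counts per read. Annotation, strand setting and filters are not given in the sources used here.

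limma 3.58.1 with a trend (R 4.3.3) was run on log2(normalized count + 1), because the values are not counts. edgeR 4.0.16 and DESeq2 1.42.0 were run on the recovered reads as alternatives. Coordinates and exon lengths are those of GENCODE M1. The labels name no batch, and the p-values measure the spread between mice.

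The genes and lists were chosen with earlier results of these data known. Genes named are the 12 with the smallest p, the most abundant of each subfamily, those called by any tool, 7 set genes of non-neuronal cells (of which Kcne2 lay below the level) and the partner with the smallest p in each complex. Any other gene is marked. The values of 2 of the 73 genes are not reported here, although both enter the fits and the counts. Alternatives were pseudocounts of 0.1 and 5, no filter, a filter of 100, TMM, upper-quartile and recomputed size factors, no trend, edgeR, DESeq2 and each mouse left out. DESeq2 over all genes with a read and the mice left out in pairs were added after seeing the data.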

Additional observations from a re-analysis of the deposited data

How the results depend on the processing

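No paired analysis was possible because the groups share no mouse numbers. The choice of test and of mice moved the counts. limma called 0 genes, DESeq2 182, DESeq2 over all genes with a read 185, and limma without mice 10 and 9 called 587. With each mouse left out in turn it called 0 to 1. Of the 73 genes, these called 0, 1 (Kcna5), 2 (Kcna5 and Kcnk15) and 3, and 0 with each mouse left out. Genes whose groups did not overlap numbered 7, with 9 to 28 when a mouse was left out, 39 without mice 10 and 9 and 45 without mice 3 and 5. These are 9.59%, 12.3% to 38.4%, 53.4% and 61.6% of the 73, against 10.35%, 13.2% to 31.8%, 56.1% and 68.8% of all genes, since fewer mice make such a gap easier. The higher ones went from 5 to 5 to 10, 17 and 14, and the lower ones from 2 to 2 to 18, 22 and 31. By direction, shares of all genes were taken with all mice only, at 5.69% higher and 4.66% lower. Nothing is therefore read from the counts by direction with mice left out. The median over the 73 genes lay between -0.24 and 0.0825 with each mouse left out. Subfamily medians moved by more than their spread over mice in 24 of 284 cases. Of 35 named genes, 22 kept their sign in every alternative run. With each mouse left out, the log2 fold change crossed 0 for Dpp6 (-0.23 to 0.0323), Kcna1 (-0.51 to 0.0828), Kcnf1 (-0.20 to 0.50), Kcnip2 (-0.0546 to 0.0399), Kcnj10 (-0.17 to 0.36), Kcnj13 (-0.74 to 0.14), Kcnj16 (-0.22 to 0.0599), Kcnj8 (-0.15 to 0.10), Kcnma1 (-1.39 to 0.16), Kcnrg (-0.45 to 0.26), Kcnt1 (-0.29 to 0.24) and Vapa (-0.23 to 0.0219). Without mice 10 and 9 it turned for Dpp6 (0.0146), Kcna1 (0.21), Kcnf1 (-0.31), Kcnj16 (0.13), Kcnj8 (0.0415), Kcnrg (0.23) and Kcnt1 (0.0438). Without mice 3 and 5, against ketamine mouse 9 alone, it turned for Calm3 (0.0272), Kcnip2 (0.0494), Kcnj10 (-0.40), Kcnj13 (0.89), Kcnj8 (0.0695) and Vapa (0.28). Kcnip2 was at 0.0006 with TMM, 0.0131 with upper-quartile scaling and 0.001 with edgeR, and Kcnj13 at 0.0352 with edgeR, 0.0209 with DESeq2 and 0.0193 with DESeq2 over all genes. The causes of these shifts were not tested. Scaling moved the median of all genes by at most 0.03. Counts limit the genes near the detection limit, such as Kcnk15, Kcnn4 and Kcnrg.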

Other observations

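Of the 13 genes below the level, Kcnh8, which encodes an ELK channel, came nearest to it, with 2.87, 3.86 and 3.29 normalized counts after saline and 22.5, 13.2 and 2.72 after ketamine. The other 12 had means of at most 3.37 normalized counts. A further 3 identifiers carry no symbol in the deposited table, although the table of gene names calls them Kcnh8, Kcng2 and Kcnb2, and so they were not among the 73. That of Kcng2, a silent subunit gene, had 125, 142 and 179 normalized counts in the saline mice and 80.3, 96.9 and 109 in the ketamine mice, so that all ketamine mice lay below all saline mice. Its log2 fold change was -0.63 (SE 0.219, limma adjusted p = 0.733). The identifier named Kcnb2 here had 157, 102 and 80.2 normalized counts in the saline mice and 142, 119 and 49.0 in the ketamine mice, beside the Kcnb2 row with a symbol. The other Kcnh8 identifier had a mean of 7.69, also below the level. It had 1.92, 0.97 and 3.29 normalized counts in the saline mice and 21.5, 8.47 and 9.97 in the ketamine mice. Its groups did not overlap, unlike those of the Kcnh8 row with a symbol.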
